A study of Mus musculus with 6 samples.

Results

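The clock genes described here are Bhlhe40, Bhlhe41, Nr1d1, Nr1d2, Per1, Per2, Cry1, Cry2, Ciart and Dbp, a group of repressors and outputs of the circadian clock. They were chosen by name, 10 genes of the 19937 named genes that the arrays measured, and all 10 had a probe set assigned to a single gene symbol. For each gene the brightest of its probe sets, by the mean of all 6 arrays, was taken, a choice that uses brightness and not the treatment. The genes were proposed with earlier results of this same comparison known, so the counts over them describe these arrays and are not independent evidence. The arrays hold A316 cells, a mouse line labelled as a primary adenocarcinoma line in which the gene Cebpa is knocked out, so that the lung and myeloid differentiation factor C/EBP alpha should be missing. The treated group, of 3 arrays, received the compound PTC-209, a Bmi inhibitor per the labels, dissolved in 0.5% DMSO. The control group, also of 3 arrays, received only the 0.5% DMSO vehicle. Both groups carry the Cebpa knockout, both received DMSO, and both come from a single line, so no cell with intact Cebpa and no untreated cell was measured. The sources used here do not give the dose, the exposure time, the time of day of harvest or any synchronisation of the cells. A description field that names embryo stages goes against every other label and was not used.

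The circadian clock is a feedback loop of transcription. The activators CLOCK and BMAL1 bind E-box sites and drive the Per and Cry genes, whose proteins return to the nucleus and block the activators. The same activators drive Nr1d1 and Nr1d2, whose REV-ERB proteins repress Bmal1, and Bhlhe40, Bhlhe41 and Ciart, whose proteins dampen E-box transcription, while Dbp carries the rhythm to output genes. Several of these genes also answer directly to outside signals, among them Per1, which cyclic AMP and glucocorticoids induce, and Bhlhe40, which low oxygen induces.

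All 10 genes rose with PTC-209 (limma, adjusted p under 0.05 over all 28192 tested probe sets), where 26.6% of all named genes passed, 12.9% as rises and 13.7% as falls. On each of the 10 genes the 3 PTC-209 arrays lay above the 3 DMSO arrays, a separation in 1 direction or the other that 40.5% of all named genes had. The log2 differences ran between 0.39 and 2.92 with a median of 1.26, against a median of 0.026 over all named genes. By the deposited values Bhlhe41, dim in DMSO, and Ciart differed the most and Per2 the least. All levels below are RMA values on the log2 scale, given for each array or as mean ± SD of 3 arrays. Nothing in the labels says that replicates are separate cultures, and the p-values then measure only the spread between these arrays, which may be technical.

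**Figure D1:**
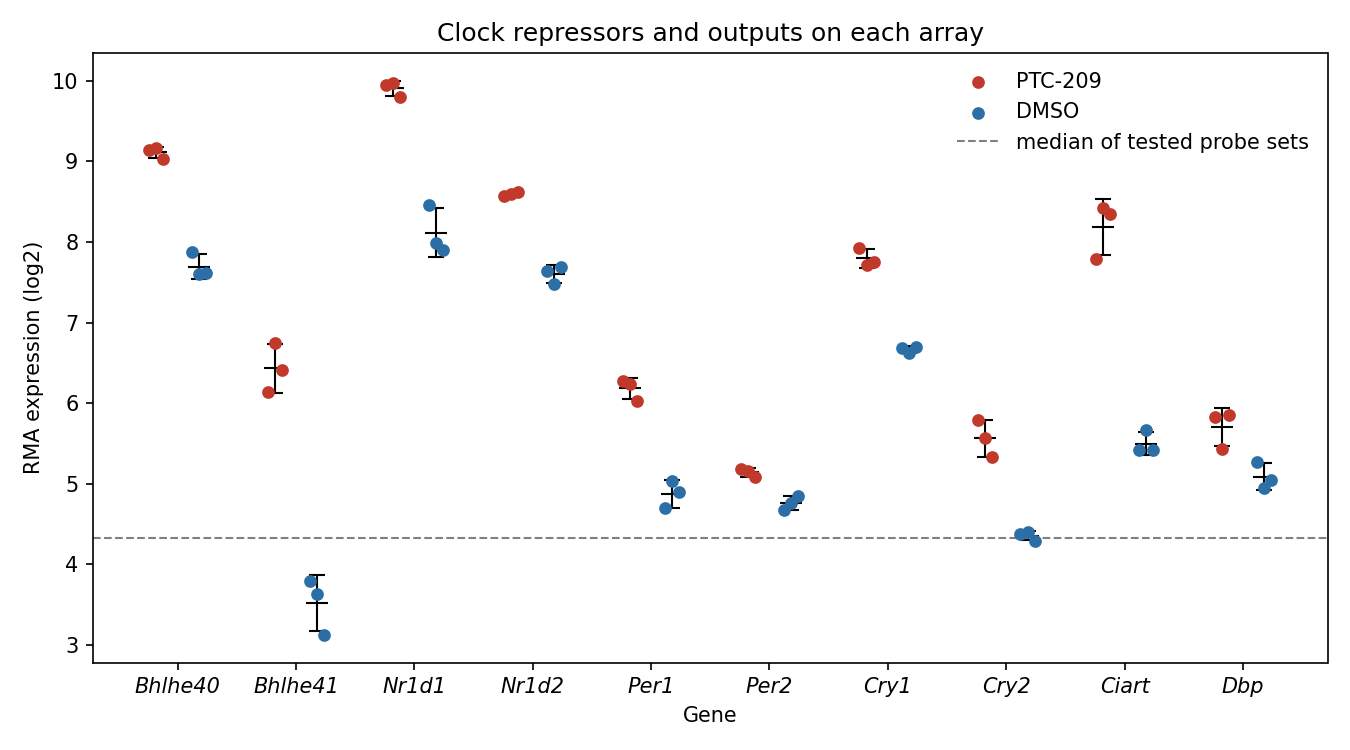
RMA expression on the log2 scale of the 10 clock genes, with 1 point per array, PTC-209 in red and DMSO in blue, and bars for the mean and SD of 3 arrays. The dashed line is the median brightness of the tested probe sets, 4.33, and for every gene the red points lie above the blue ones, by the widest gap for Bhlhe41.

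The basic helix-loop-helix repressors Bhlhe40 and Bhlhe41, also called DEC1 and DEC2, compete for E-boxes and recruit co-repressors. Bhlhe40 (probe set 10540472) read 9.14, 9.16 and 9.03 on the PTC-209 arrays, against 7.87, 7.60 and 7.61 on the DMSO arrays. The lowest PTC-209 array exceeded the highest DMSO array by 1.16, and the level was 2.67-fold higher with PTC-209 (log2 difference 1.42, SE 0.107, limma adjusted p = 1.20e-05). Bhlhe41 (probe set 10549276) read 6.14, 6.74 and 6.41 on the PTC-209 arrays, against 3.79, 3.63 and 3.13 on the DMSO arrays. All 3 DMSO values lay under the median brightness of all tested probe sets, 4.33, so no fold is given. The log2 difference was 2.92 (SE 0.195, limma adjusted p = 5.68e-06), taken between the deposited values as they stand, and its size is uncertain because the DMSO level is dim.

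Ciart, also called CHRONO, is a repressor that binds BMAL1 at E-boxes. Its probe set 10373452 read 7.79, 8.43 and 8.35 on the PTC-209 arrays, against 5.41, 5.66 and 5.41 on the DMSO arrays. PTC-209 replicate 1 was the lowest of its group, but it still lay 2.13 above the highest DMSO array. The level was 6.46-fold higher with PTC-209 (log2 difference 2.69, SE 0.167, limma adjusted p = 3.62e-06), rank 21 among all named genes. Ciart was the only gene of the 10 with a further probe set of its own. That probe set, 10500272, read 7.36, 7.42 and 7.55 with PTC-209, against 4.55, 5.02 and 4.80 in DMSO, a 6.31-fold higher level. The groups were apart on this probe set too, by 2.35 at their nearest arrays. By its number 10373452 falls between the probe sets of Cry1 (chromosome 10) and Per1 (chromosome 11), while Ciart lies on chromosome 3. The number 10500272 falls between the probe sets of Cry2 (chromosome 2) and Bhlhe41 (chromosome 6). The 6.46-fold level and the rank are those of 10373452. Whether either probe set lies at the Ciart locus was not tested.

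The REV-ERB receptors repress Bmal1 and other genes through the NCoR and HDAC3 co-repressors and bind haem as their ligand. Nr1d1, the gene of REV-ERB alpha (probe set 10390691), read 9.95, 9.97 and 9.80 on the PTC-209 arrays, against 8.46, 7.99 and 7.90 on the DMSO arrays. DMSO replicate 1 stood above its 2 partners, yet the groups remained 1.33 apart, and the level was 3.45-fold higher with PTC-209 (log2 difference 1.79, SE 0.148, limma adjusted p = 2.27e-05). Thra, a thyroid hormone receptor gene that overlaps Nr1d1 on the opposite strand, averaged 6.29 ± 0.23 with PTC-209 and 5.85 ± 0.14 in DMSO (log2 difference 0.44, limma adjusted p = 0.0398). The call of Thra was lost without PTC-209 replicate 1 or 3 or DMSO replicate 2 or 3 (limma adjusted p = 0.0598 to 0.134) as well as after each array was centred on its median, with the control probe sets kept and under a test for a fold change above 1.2. Whether signal from 1 of the 2 overlapping genes reaches the probe set of the other was not tested. Nr1d2, the gene of REV-ERB beta (probe set 10417734), read 8.56, 8.59 and 8.62 with PTC-209, against 7.64, 7.48 and 7.69 in DMSO. The PTC-209 arrays stood close together, with an SD of 0.026, and the level was 1.98-fold higher (log2 difference 0.99, SE 0.0963, limma adjusted p = 6.12e-05).

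The Period proteins form the repressor complex with the cryptochromes and set its timing through their phosphorylation. Per1 (probe set 10377439) read 6.28, 6.24 and 6.03 on the PTC-209 arrays, against 4.70, 5.03 and 4.90 on the DMSO arrays. The nearest arrays of the groups were 1.0 apart, and the level was 2.48-fold higher with PTC-209 (log2 difference 1.31, SE 0.119, limma adjusted p = 3.93e-05). Per2 (probe set 10356601) read 5.19, 5.16 and 5.08 with PTC-209, against 4.67, 4.76 and 4.85 in DMSO. The groups did not overlap, but they were only 0.24 apart, and the level was 1.31-fold higher (log2 difference 0.39, SE 0.0944, limma adjusted p = 0.0147). The Per2 call was lost without PTC-209 replicate 1 (limma adjusted p = 0.0516) or PTC-209 replicate 2 (0.0537), and under a test for a fold change above 1.2 (0.544).

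Cryptochromes are the part of the repressor complex that contacts CLOCK and BMAL1. Cry1 (probe set 10371400) read 7.92, 7.71 and 7.75 on the PTC-209 arrays, against 6.69, 6.62 and 6.69 on the DMSO arrays. The 2 groups were tight and 1.02 apart, and the level was 2.19-fold higher with PTC-209 (log2 difference 1.13, SE 0.0975, limma adjusted p = 2.92e-05). Cry2 (probe set 10485170) read 5.79, 5.57 and 5.33 with PTC-209, against 4.37, 4.40 and 4.29 in DMSO. Its DMSO arrays lay close to the median brightness of 4.33, DMSO replicate 3 under it, so no fold is given. The log2 difference was 1.21 (SE 0.124, limma adjusted p = 8.59e-05), between groups that did not overlap.

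Dbp, a transcription factor of the PAR bZIP family and a direct output of the clock, was represented by probe set 10553092. It read 5.83, 5.43 and 5.85 on the PTC-209 arrays, against 5.27, 4.95 and 5.05 on the DMSO arrays. PTC-209 replicate 2 and DMSO replicate 1 were only 0.16 apart, the narrowest gap of the 10 genes. The level was 1.53-fold higher (log2 difference 0.62, SE 0.140, limma adjusted p = 0.00989), and the call was lost under a test for a fold change above 1.2 (limma adjusted p = 0.111).

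Of the 10 genes, 8 had an upstream window in the RefSeq promoter table (build GRCm38.p6), and Per1 had 2 such windows. The 250 bases before the start were searched on both strands for the E-box CACGTG, which is its own reverse complement and was counted once, and for the E′-box CACGTT. They were also searched for the D-box TTATGNAA, the cyclic AMP site TGACGTCA and the REV-ERB and ROR core TAGGTCA. The E-box was present for 4 of the 8 genes, Ciart, Bhlhe41, Cry1 and Per1. Counted by window this was 4 of 9, beside 6.02% of the 32851 windows of the table. Ciart held 3 copies, a number reached by 20 windows, or 0.0609% of the table. These 4 windows are printed because they hold a match to the E-box letters, in lower case, on the strand of the gene, with each E-box in capitals.
Ciart, chr3:95882229-95882478, minus strand: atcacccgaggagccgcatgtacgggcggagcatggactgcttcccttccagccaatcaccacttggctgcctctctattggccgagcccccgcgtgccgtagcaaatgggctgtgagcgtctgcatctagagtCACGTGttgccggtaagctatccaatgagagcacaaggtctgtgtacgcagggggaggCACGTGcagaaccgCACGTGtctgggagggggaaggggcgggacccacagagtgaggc
Bhlhe41, chr6:145865421-145865670, minus strand: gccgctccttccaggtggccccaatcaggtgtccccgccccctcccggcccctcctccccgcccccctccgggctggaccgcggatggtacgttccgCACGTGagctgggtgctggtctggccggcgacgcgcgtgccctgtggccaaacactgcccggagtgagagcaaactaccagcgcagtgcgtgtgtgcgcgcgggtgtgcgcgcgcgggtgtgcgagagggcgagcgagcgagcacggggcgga
Cry1, chr10:85185055-85185304, minus strand: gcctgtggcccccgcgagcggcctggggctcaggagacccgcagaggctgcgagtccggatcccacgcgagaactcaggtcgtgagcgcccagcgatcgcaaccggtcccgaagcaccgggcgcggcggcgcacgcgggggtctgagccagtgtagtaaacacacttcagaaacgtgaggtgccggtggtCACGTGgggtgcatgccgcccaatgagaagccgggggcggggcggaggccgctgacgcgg
Per1, first window, chr11:69098699-69098948, plus strand: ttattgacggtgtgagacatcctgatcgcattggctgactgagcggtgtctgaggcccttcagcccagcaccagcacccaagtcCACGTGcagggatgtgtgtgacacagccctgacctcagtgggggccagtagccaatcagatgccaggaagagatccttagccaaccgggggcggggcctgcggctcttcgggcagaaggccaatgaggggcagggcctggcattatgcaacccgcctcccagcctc
The E-boxes of Ciart began 116, 58 and 44 bases before the start, that of Bhlhe41 153 bases, that of Cry1 60 bases and that of Per1 166 bases before it. The E′-box was found in the single windows of Nr1d1, Cry1 and Cry2, beside 3.85% of all windows. The D-box was found in the first window of Per1, beside 3.07%. The windows of Nr1d2 and Dbp, and the second window of Per1, held none of the motifs, and no window of the 8 genes held TGACGTCA (1.55% of all windows) or TAGGTCA (2.23%). The windows of these genes had a GC content of 54.8% to 73.6%, where the median of all windows was 52.4%, and the shares are not matched for it. A match shows letters in a window and not binding, and the arrays hold no measure of binding. Sequence outside these windows was not searched, so a gene without a match here may hold the motif elsewhere.

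**Figure D2:**
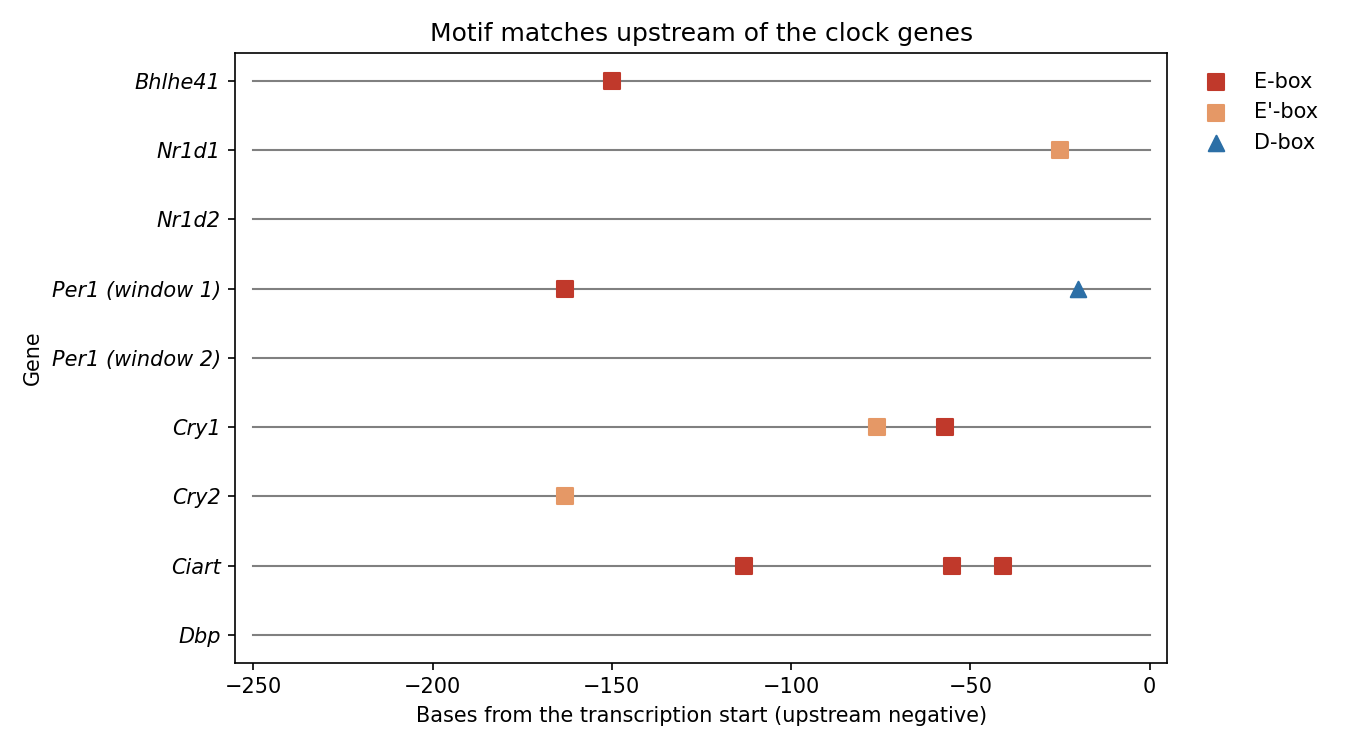
Motif matches in the 250 bases upstream of the transcription start for the 8 clock genes with a window in the RefSeq table, as distance from the start in bases. Each line is 1 window and each symbol the centre of 1 match, and Ciart alone carries 3 E-boxes, while the lines of Nr1d2, Dbp and the second window of Per1 are empty.

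The 10 genes include 4 pairs of close relatives, and within each pair the difference between the 2 genes on the same array was compared between the groups. The level of 1 probe set cannot be set against that of another, so only the shift of this within-array difference between the groups can be read. Bhlhe40 minus Bhlhe41 was 2.68 ± 0.29 with PTC-209 and 4.18 ± 0.27 in DMSO (SD, n = 3 each), which differ by -1.50 on the log2 scale, a size that is uncertain because Bhlhe41 lay under the median brightness on all 3 DMSO arrays. Nr1d1 minus Nr1d2 was 1.31 ± 0.12 with PTC-209 and 0.51 ± 0.30 in DMSO, and Per1 minus Per2 was 1.04 ± 0.083 with PTC-209 and 0.12 ± 0.14 in DMSO. The group means differ by 0.80 for the Nr1d pair and by 0.92 for the Per pair. In these 3 pairs the PTC-209 and DMSO arrays stood apart, and the two-sided exact permutation test gave p = 0.1, the smallest that 3 against 3 arrays can give (0.133 adjusted over the 4 pairs). Cry1 minus Cry2 was 2.23 ± 0.16 with PTC-209 and 2.31 ± 0.090 in DMSO, a difference of -0.08 that was smaller than the spread between arrays (exact permutation p = 0.6, adjusted 0.6). Leaving out 1 array gave differences between -0.17 and -0.03 for this pair, and without PTC-209 replicate 3 (-0.17) the groups no longer overlapped.

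**Figure D3:**
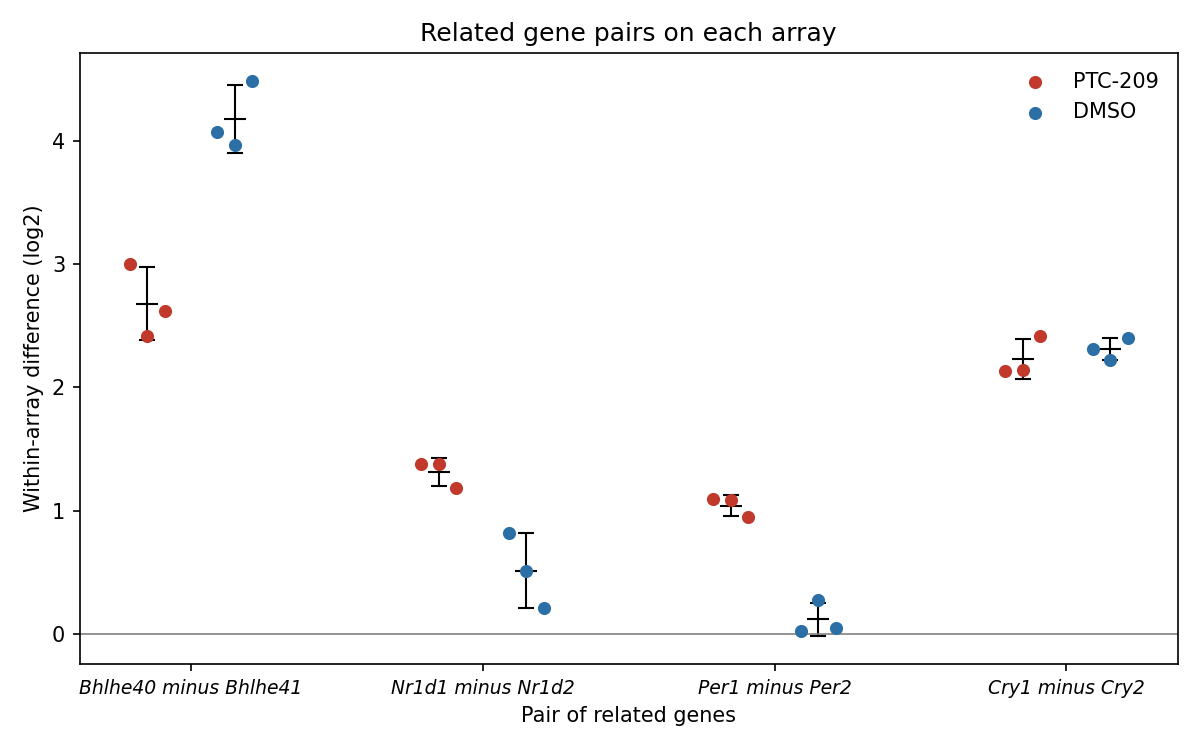
Log2 level of the first gene of a pair minus that of the second on each array, PTC-209 in red and DMSO in blue, with bars for the mean and SD of 3 arrays. The groups are apart for the Bhlhe, Nr1d and Per pairs and overlap for Cry1 and Cry2, and the height of a pair on the axis has no meaning because 2 probe sets are involved.

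The activators of the loop were read next, beside the shares of all named genes, 12.9% with a rise and 13.7% with a fall. Of the 5 measured activator genes, 2 rose and 0 fell by limma (0 fell at an unadjusted p under 0.05), with a median log2 difference of 0.019. Arntl, the gene of BMAL1, read 5.37 ± 0.14 with PTC-209 and 5.45 ± 0.14 in DMSO (log2 difference -0.08, limma adjusted p = 0.713). Clock averaged 8.30 ± 0.083 with PTC-209 and 7.91 ± 0.072 in DMSO, a 1.32-fold higher level (limma adjusted p = 0.0135). Its call was lost without PTC-209 replicate 1 (limma adjusted p = 0.0515) or DMSO replicate 2 (0.0557), and under a test for a fold change above 1.2 (0.482), where 1 activator rose. Rora, an activator of Bmal1 that competes with REV-ERB for its sites, was at 4.81 ± 0.22 with PTC-209 and at a dim 4.06 ± 0.21 in DMSO (limma adjusted p = 0.00374). Arntl2 and Rorb lay under the median brightness in both groups, with log2 differences of -0.07 and 0.02.

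Further repressors and outputs went both ways, with 3 rises and 2 falls among 6, beside 12.9% and 13.7% of all named genes. The PAR bZIP gene Tef was 1.44-fold higher (limma adjusted p = 0.00248). Nfil3, whose protein represses through the same sites as DBP and TEF, was 1.38-fold higher (0.00581), and Per3 1.37-fold higher (0.0253). The Per3 call was lost without PTC-209 replicate 1 or 2 or DMSO replicate 2 or 3 (limma adjusted p = 0.0590 to 0.0908) and with the control probe sets kept. Under a test for a fold change above 1.2, 0 of the 3 rises passed, and Tipin alone fell. Timeless, named after a fly clock gene, and its partner Tipin, whose mammalian proteins protect the replication fork, both fell. Tipin was 4.06-fold lower with PTC-209, at 6.96 ± 0.12 against 8.98 ± 0.37 in DMSO (limma adjusted p = 2.55e-05), and Timeless was at 4.51 ± 0.29 with PTC-209, near the median brightness, and at 5.25 ± 0.26 in DMSO (0.0101).

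**Figure D4:**
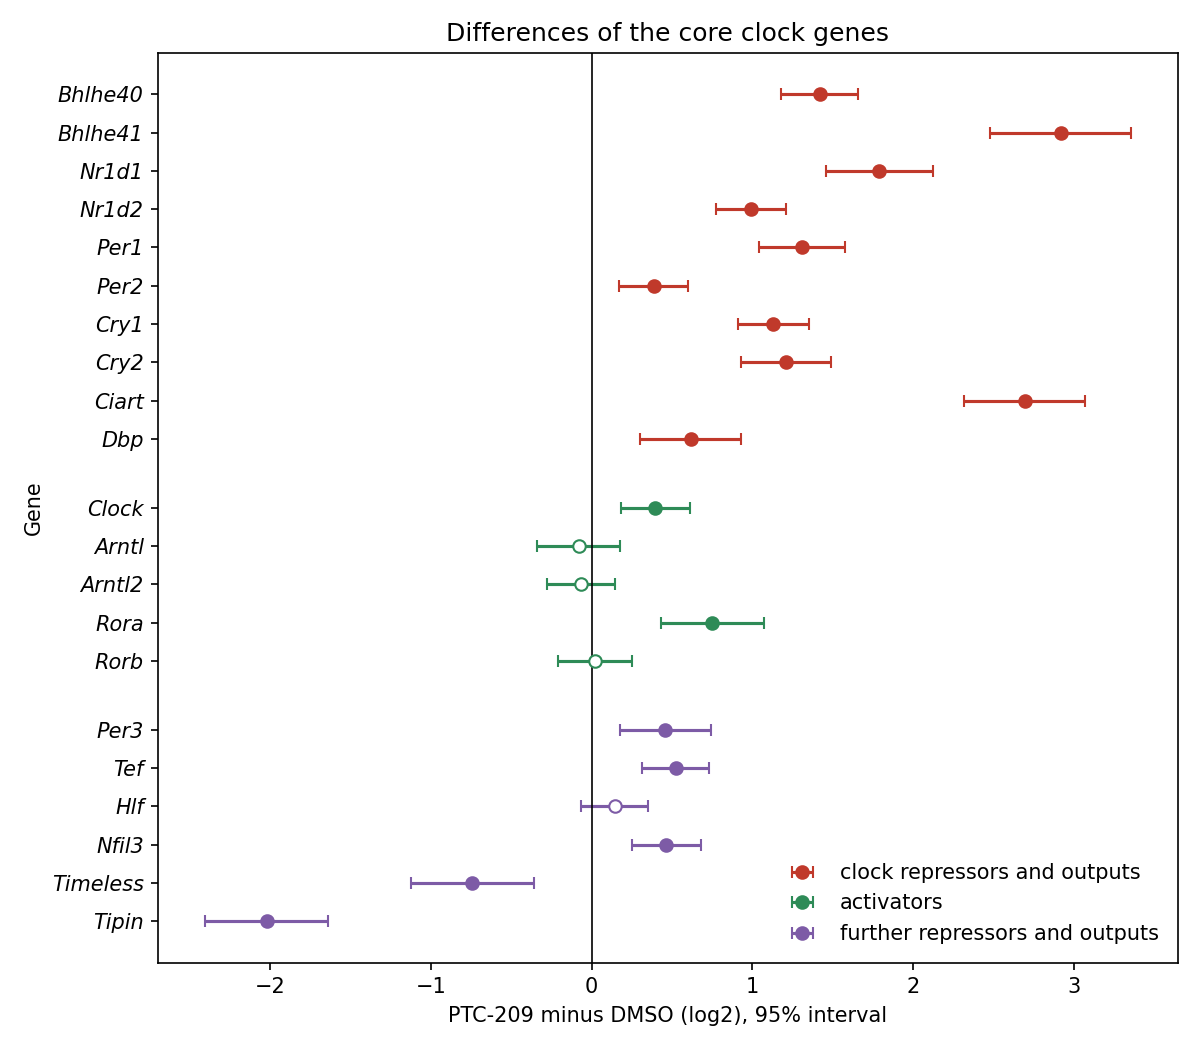
PTC-209 minus DMSO on the log2 scale with 95% confidence intervals from the limma fit, for the 10 clock genes, the activators and the further repressors and outputs. Filled points passed the adjusted p threshold and open points did not. The intervals of the 10 clock genes lie to the right of 0, those of Arntl, Arntl2 and Rorb span it, and those of Timeless and Tipin lie to the left.

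Among the kinases, ligases and deubiquitinases that act on clock proteins, 6 of 15 rose and 1 fell, with a median log2 difference of 0.20. Over all named genes 12.9% rose and 13.7% fell. Csnk1e, a casein kinase that phosphorylates PER proteins, was 1.92-fold higher (limma adjusted p = 0.000136), and Gsk3b, which phosphorylates REV-ERB alpha, was 1.78-fold higher (0.000152). Fbxw11, which marks PER proteins for degradation, was 1.65-fold higher, and the casein kinase subunits Csnk2a1 and Csnk2a2 were 1.59-fold and 1.43-fold higher. The ligase gene Huwe1 was 1.28-fold higher, a call that was lost without any single array other than PTC-209 replicate 3 (limma adjusted p = 0.0785 to 0.153) and also after each of 3 further normalizations and with the control probe sets kept. Usp7, a deubiquitinase that acts on cryptochromes, was 1.69-fold lower with PTC-209 (limma adjusted p = 0.000364). Usp2 did not pass (limma adjusted p = 0.101), but it passed as a rise with array weights (0.0318) and without DMSO replicate 1 (0.0355).

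Co-repressors and co-activators of the clock were divided, with 3 rises and 3 falls among 14 and a median of 0.070. All named genes were divided too, with 12.9% rises and 13.7% falls. The acetyltransferase genes Ep300 and Crebbp were 1.56-fold and 1.48-fold higher, and Wdr5, a subunit of histone methyltransferase complexes, was 1.49-fold higher (limma adjusted p = 0.00311 to 0.00626). Under a test for a fold change above 1.2, 0 of these rises passed. The acetyltransferase gene Kat2b was 2.47-fold lower, the deacetylase genes Hdac1 2.45-fold and Sirt1 1.57-fold lower (limma adjusted p = 6.32e-06 to 0.000563). Hdac3, the deacetylase of the REV-ERB complex, had a log2 difference of -0.05 that did not pass (limma adjusted p = 0.839). Hdac2 did not pass either (log2 difference -0.32, limma adjusted p = 0.0743). It passed as a fall with another prior, with dim probe sets left out and after a second quantile normalization. The same held after cyclic loess, with array weights and without DMSO replicate 1 (limma adjusted p = 0.0139 to 0.0387 over these fits).

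Of 16 measured genes often listed as rhythmic in mouse tissues, 5 rose and 3 fell, with a median of 0.098. Rises made up 12.9% and falls 13.7% of all named genes. The transcription factor gene Klf9 was 2.36-fold higher and Lonrf3 2.28-fold higher. Tsc22d3, a glucocorticoid-induced gene, was 1.68-fold higher, the ubiquitin ligase gene Nedd4l 1.64-fold and Nampt, an enzyme of NAD salvage, 1.46-fold higher. E2f8, an E2F factor of the cell cycle, was 4.88-fold lower, Wee1, a kinase that restrains entry into mitosis, 2.31-fold lower and the tetraspanin gene Tspan4 1.64-fold lower. The limma adjusted p of these 8 genes lay between 4.84e-07 and 0.00225. Mthfd1l did not pass (limma adjusted p = 0.125), but it passed as a rise with array weights (0.0424) and without DMSO replicate 1 (0.0406).

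Of 12 factors that carry signals to the Per and Bhlhe40 genes, 5 rose and 1 fell, with a median of 0.25. The shares over all named genes were 12.9% rises and 13.7% falls. Hif1a, the oxygen-regulated factor that induces Bhlhe40, was 1.74-fold higher, at 9.67 ± 0.088 with PTC-209 and 8.87 ± 0.012 in DMSO (limma adjusted p = 0.000175). Crtc2, a co-activator of CREB, was 1.57-fold higher (limma adjusted p = 0.00358). Creb1 itself was 1.36-fold lower (limma adjusted p = 0.0169), a call lost without PTC-209 replicate 2 (0.0727). Nr3c1, the glucocorticoid receptor gene, had a log2 difference of 0.18 (limma adjusted p = 0.402). Crtc3 did not pass (log2 difference 0.44, limma adjusted p = 0.0804). It passed as a rise with dim probe sets left out, after a second quantile normalization and with array weights. The same held with the replicate block and without DMSO replicate 1 (limma adjusted p = 0.00573 to 0.0450 over these fits). Srf and its co-activators Mrtfa and Mrtfb rose by 0.45, 0.32 and 0.38 on the log2 scale. Each of these 3 calls was lost in 4 of the 6 fits that left out an array, and the count of rises was 2 without PTC-209 replicate 2, DMSO replicate 2 or DMSO replicate 3 and 3 without PTC-209 replicate 1. The count was also 2 with the control probe sets kept. The call of Mrtfa was further lost with another prior, after cyclic loess, after median centring and with the replicate block.

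By the smallest root mean square distance of centred values over the 6 arrays, the genes nearest to Bhlhe41, whose deposited values differed the most of the 10 and were dim in DMSO, were Ppp1r15a (0.21), Sqstm1 (0.24), Ciart (0.24) and Hmox1 (0.25). Their log2 differences were 2.93, 2.84, 2.69 and 3.27, beside 2.92 for Bhlhe41. These genes were picked for their likeness, which rests on 2 groups of 3 arrays, and they carry no test.

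The state of the cells on these arrays was read from further genes. Bmi1 mRNA was lower on the PTC-209 arrays, at 6.97, 6.96 and 7.09 against 7.47, 7.71 and 7.47 in DMSO, and Cebpa lay under the median brightness in both groups, at 3.79 ± 0.12 with PTC-209 and 3.65 ± 0.16 in DMSO. Epithelial markers were bright, with Krt8 at 10.58 ± 0.11 with PTC-209 and 11.41 ± 0.11 in DMSO, and 2 of 7 rose and 3 fell. The falls of Krt8, Krt18 and Krt19 and the rise of Cldn4 held under all 17 alternatives given below. Of the rises, that of Cdh1 was lost without any single array other than DMSO replicate 1 (limma adjusted p = 0.0602 to 0.127), after each of 3 further normalizations, with the control probe sets kept and under a test for a fold change above 1.2. Epcam, which did not pass, passed as a fall with another prior, with dim probe sets left out, after cyclic loess and with array weights (limma adjusted p = 0.0303 to 0.0430). Of the 8 lung lineage markers 0 passed in the limma fit (0 at an unadjusted p under 0.05). Among them Nkx2-1, at 3.72 with PTC-209 and 3.60 in DMSO, and Sftpc, at 2.60 with PTC-209 and 2.85 in DMSO, lay under the median brightness. Of 6 leukocyte markers 1 rose, Cd68, at 10.03 with PTC-209 and 7.42 in DMSO. Ptprc, the defining marker, stood at 3.06 with PTC-209 and 3.17 in DMSO, and the summed log2 level of the list was 27.1 to 27.4 on PTC-209 arrays and 24.1 to 24.9 on DMSO arrays. Of 5 endothelial markers 1 fell, Cdh5, at 8.15 with PTC-209 and 9.48 in DMSO, while Pecam1 stood at 3.51 with PTC-209 and 3.39 in DMSO. The endothelial sums were 19.5 to 20.4 with PTC-209 and 20.6 to 21.0 in DMSO. Of 7 fibroblast markers 0 passed in the limma fit (1 at an unadjusted p under 0.05), with sums of 29.2 to 30.0 with PTC-209 and 28.3 to 29.2 in DMSO. These marker counts stand beside 12.9% rises and 13.7% falls over all named genes, and they rest on single arrays in part. Sftpb, a lung marker, passed as a rise without DMSO replicate 3 (limma adjusted p = 0.0456), and Kdr, an endothelial marker, without DMSO replicate 2 (0.0186). Pdgfra, a fibroblast marker, passed as a rise without PTC-209 replicate 3 (limma adjusted p = 0.0416), with dim probe sets left out (0.0457) and with array weights (0.0471). The part of other cells in the clock gene differences was not tested.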

How the data were processed

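Total RNA of 6 arrays was extracted with Trizol and hybridised to Affymetrix arrays after biotin labelling, per the labels' protocols. The deposited log2 values were made by the authors with RMA (background correction, quantile normalization and probe summary), per the submitters' processing notes, which by construction hides a change in the same direction of most genes. The sources used here give no software version and no genome build. Of 34760 probe sets, a block of 6568 array controls was left out, recognised by its run of identifiers and the lack of listed genes. The platform annotation gives 1 symbol to 21640 of the 28192 tested probe sets, several to 1321 and none to 5231, which names 19937 genes.

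Groups were taken from the titles. The log2 values were fitted by treatment alone in limma (version 3.58.1, R 4.3.3, functions lmFit and eBayes), with Benjamini-Hochberg adjustment over all tested probe sets and a threshold of 0.05. A rise or fall is a difference past that threshold. The fit was tested on simulated data with 50 raised probe sets at each size of change. It recovered 18% of log2 changes of 0.5, 76% of those of 1 and 98% of those of 2, and 3 unchanged probe sets passed. Far fewer probe sets were changed there than passed here, so these shares do not carry over directly. A gene that did not pass may still differ. The residual degrees of freedom were 4, the prior degrees of freedom 5.27 and the median residual SD 0.138, and the number of arrays, 3 per group, limits the precision. Array medians lay between 4.07 and 4.14, and the correlation of 2 arrays across probe sets (not independent replicates) was at least 0.992 within groups and at most 0.974 between them. The genes, lists and tests were chosen with earlier results of these data known. Every gene of the further clock lists past the threshold is named, with others given as examples by role, chosen after their values were seen. No gene of the 10 fell, so the likeness rule was applied to the largest rise alone. Upstream windows came from RefSeq. The alternatives were another prior, leaving out dim probe sets, 3 further normalizations, keeping the controls, weighting arrays and a required fold change above 1.2. A block for replicate number, other probe sets of a gene and leaving out each array were the others. A probe set was left out as dim only if both group means lay under the median brightness of 4.33. Bhlhe41 and Rora stayed in through their PTC-209 level alone, so this alternative is no check on their dim DMSO level. Figures were drawn with matplotlib 3.10.9.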

Additional observations from a re-analysis of the deposited data

Results flagged for a closer look

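The further probe set of Ciart, which the comparison did not use, also rose with PTC-209 (log2 difference 2.66, limma adjusted p = 9.36e-07), beside 2.69 for the probe set used. It is listed because it is a signal outside the main measurement. Both probe sets carry the same gene symbol, and whether they share probes was not tested.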

How the results depend on the processing

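Of the 10 clock genes, 8 passed with the same direction under all 17 alternatives, with a largest limma adjusted p of 0.000953. Taking the second probe set touched Ciart alone, so for every other gene this alternative repeats the main fit and is no check. Averaging all probe sets could change the log2 difference only of a gene with several, which among the 10 is again Ciart alone. The count of rises among the 10 was 8 with a required fold change above 1.2, 9 without PTC-209 replicate 1 or 2 and 10 under every other alternative, and 0 fell under any. Among the 68 further clock genes 24 rose and 10 fell, where 2565 and 2741 of all 19937 named genes did. With a required fold change above 1.2, 11 rose and 8 fell, a stricter test by construction that ended the calls of Clock, Creb1, Crebbp, Csnk2a2, Ep300, Huwe1, Mrtfa, Mrtfb, Nampt, Nfil3, Per3, Srf, Tef, Timeless and Wdr5, and that of Bmi1. Over all 19937 named genes the same stricter test gave 1270 rises and 1610 falls. With dim probe sets left out, 2775 of 11047 named genes rose and 2917 fell. The other alternatives that used all 6 arrays gave 2155 to 2967 rises and 2392 to 3125 falls over all 19937 named genes. Leaving out an array gave 18 to 26 rises and 9 to 11 falls among the further clock genes. Over all named genes it gave 2068 to 2647 rises and 2264 to 2484 falls. Of the 34 called further clock genes, 27 stayed past the threshold whichever array was left out. The direction of the 4 pair differences was the same under the alternatives run on them. Among those, median centring and the use of other probe sets could not change these differences. The further normalizations moved the median difference of all genes by at most 0.032 on the log2 scale.

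Arrays with the same replicate number deviated from their group means with correlations of 0.231, 0.070 and 0.073, and 1 of 3 PTC-209 arrays and 2 of 3 DMSO arrays correlated best with their own number, so the numbers were not taken as pairs. With the replicate number as a block, 10 of the 10 clock genes rose, and 24 of the further clock genes rose and 10 fell. Of all 19937 named genes, 2689 rose and 2844 fell in that fit. Levels under the median brightness, such as Bhlhe41 in DMSO, or near it, such as Cry2 in DMSO, leave the size of a fold uncertain.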
